A study of Sus scrofa with 6 samples.

Results

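The transcripts described here were those of 41 autophagy and lysosome genes in mature pig oocytes, chosen by gene symbol from the 25880 genes counted and placed in 6 steps from initiation to the lysosome. Each of the 41 symbols matched 1 pig Ensembl identifier, and 34 of the genes passed the filter on low counts and were tested. The 6 RNA-seq libraries came from oocytes arrested in the second meiotic metaphase (MII), taken as cumulus-oocyte complexes from antral follicles of slaughterhouse ovaries and matured in vitro. Control oocytes made up 3 libraries, and the other 3 were from oocytes given the organophosphate insecticide malathion at 1 mM in the maturation medium, diluted from a 0.75 M stock in DMSO. Whether controls received DMSO, how many oocytes went into a library, and what a replicate number marks were not stated in the labels, so the p-values speak only to the spread among these libraries, part or all of which may be technical. The comparison asked how malathion affected the mRNA stored in the oocyte.

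Autophagy is the process by which a cell wraps part of its cytoplasm in a double membrane and delivers it to lysosomes for digestion. A kinase complex around ULK1 starts the process, a lipid kinase complex around BECN1 marks the growing membrane, and an enzyme chain like that of ubiquitin attaches small proteins of the LC3 and GABARAP families to it. Receptors such as SQSTM1 tie cargo to those proteins, and lysosomal cathepsins digest what arrives. In the mouse, autophagy is active in the egg soon after fertilization, when maternal proteins are cleared.

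Values are CPM, counts scaled to a common total of gene counts per library, which compare 1 gene between libraries. They are not divided by transcript length, so the levels of different genes are not ranked here. Libraries held between 25816040 and 42312341 gene counts. Both replicate 3 libraries stood apart. They held 8344 and 8492 genes with at least 1 count, against 12211 to 14707 in the others, and their scaling factors (TMM, the trimmed mean of M-values) were 0.141 and 0.138 against 2.26 to 3.57. Log2 fold changes were fitted with such factors unless stated otherwise, whereas CPM were not, so the 2 can differ in direction. Over 12 matched oocyte markers, the summed level was 4670 and 4425 CPM in control and malathion replicate 3, against 31086 to 84499 CPM in the other 4 libraries. WEE2 was at 102 and 47.0 CPM there against at least 4972 CPM elsewhere. FIGLA, at 4.50 CPM at most, had 0 counts in control replicate 3 and was at 0.0387 CPM in malathion replicate 1. The markers differed in direction: OOEP was highest in control replicate 3 (382 CPM), and ZP2 (2158 CPM) and MOS (1458 CPM) were highest in malathion replicate 3. The part of this difference in the values of PIK3C3, MAP1LC3B and CTSF, each highest in a replicate 3 library, was not tested. Of 16 cumulus and granulosa markers, 13 were matched, and they summed to 37.0 to 654 CPM in the control and 66.2 to 728 CPM in the malathion libraries, mostly VCAN and KITLG, with AMHR2 at 0 counts throughout. Markers of macrophages and blood, cells rich in lysosomes, summed to 3.28 CPM at most over 9 matched genes, and C1QA and C1QB were at 0 counts in every library.

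Autophagy and lysosome transcripts were readily measured in 4 libraries and scarce in both replicate 3 libraries. Their counts made up 0.183% (Wilson 95% interval 0.181% to 0.184%) of the gene counts in control replicate 1, 0.310% (0.308% to 0.312%) in control replicate 2 and 0.153% (0.152% to 0.154%) in control replicate 3. In malathion replicates 1, 2 and 3 the shares were 0.158% (0.157% to 0.160%), 0.208% (0.206% to 0.210%) and 0.00902% (0.00874% to 0.00931%). Control replicate 2 was thus the highest and malathion replicate 3 by far the lowest, while the share of control replicate 3 came mostly from MAP1LC3B alone. The intervals treat each read as an independent draw and leave out the spread between libraries. Amplified copies of 1 molecule are counted repeatedly, so the intervals can be too narrow even for counting error. At least 10 CPM was reached by 20, 26 and 3 of the 41 genes in control replicates 1, 2 and 3, and by 18, 22 and 1 in malathion replicates 1, 2 and 3. In such bulk libraries fewer cells of a type and less RNA per cell cannot be told apart.

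**Figure D1:**
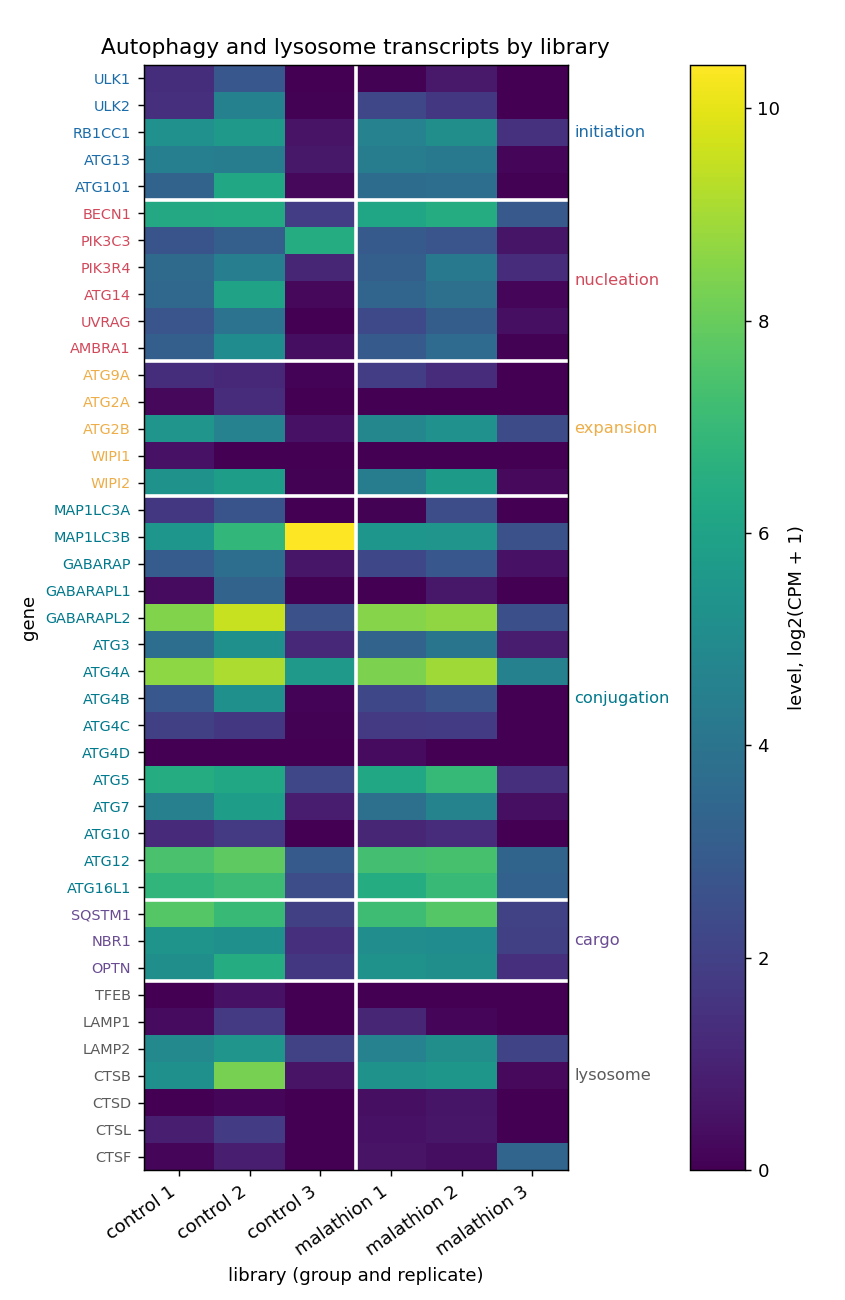
Level of each of the 41 genes (rows, grouped by step) in each library (columns), coloured by log2(CPM + 1). The columns of control 3 and malathion 3 are dark except for MAP1LC3B and PIK3C3 in control 3 and a few genes at low level, and control 2 is the brightest column for most genes.

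None of the 34 tested genes passed the test of malathion against control. In edgeR's quasi-likelihood fit over 10678 genes none was called at a threshold of 0.05 (background 0%), and each of the 34 had an adjusted p of 0.9998. An unadjusted p under 0.05 belonged to 3 of the 34, against 3.59% of all tested genes (383 genes). CTSF had the higher fitted value after malathion (background 0.918%), and PIK3C3 and MAP1LC3B the lower one (background 2.67%). In each of these 3 genes a single library held 76.6% to 84.5% of the CPM summed over the 6 libraries. By direction alone, 13 fold changes were above 0 and 21 below, and 46.6% of all tested genes were above 0. The median log2 fold change, malathion over control, was −0.21 over the 34 genes and −0.08 over all tested genes. Scaled to library totals alone, 6 were above 0 and 28 below, with 33.7% of all tested genes above 0 and medians of −0.50 and −0.33. Without control replicate 2 the split was 19 to 15, and the medians were 0.09 and 0.22. Among the 34, the 95% intervals extended by a median of 2.59 log2 units to either side of the fitted value.

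**Figure D2:**
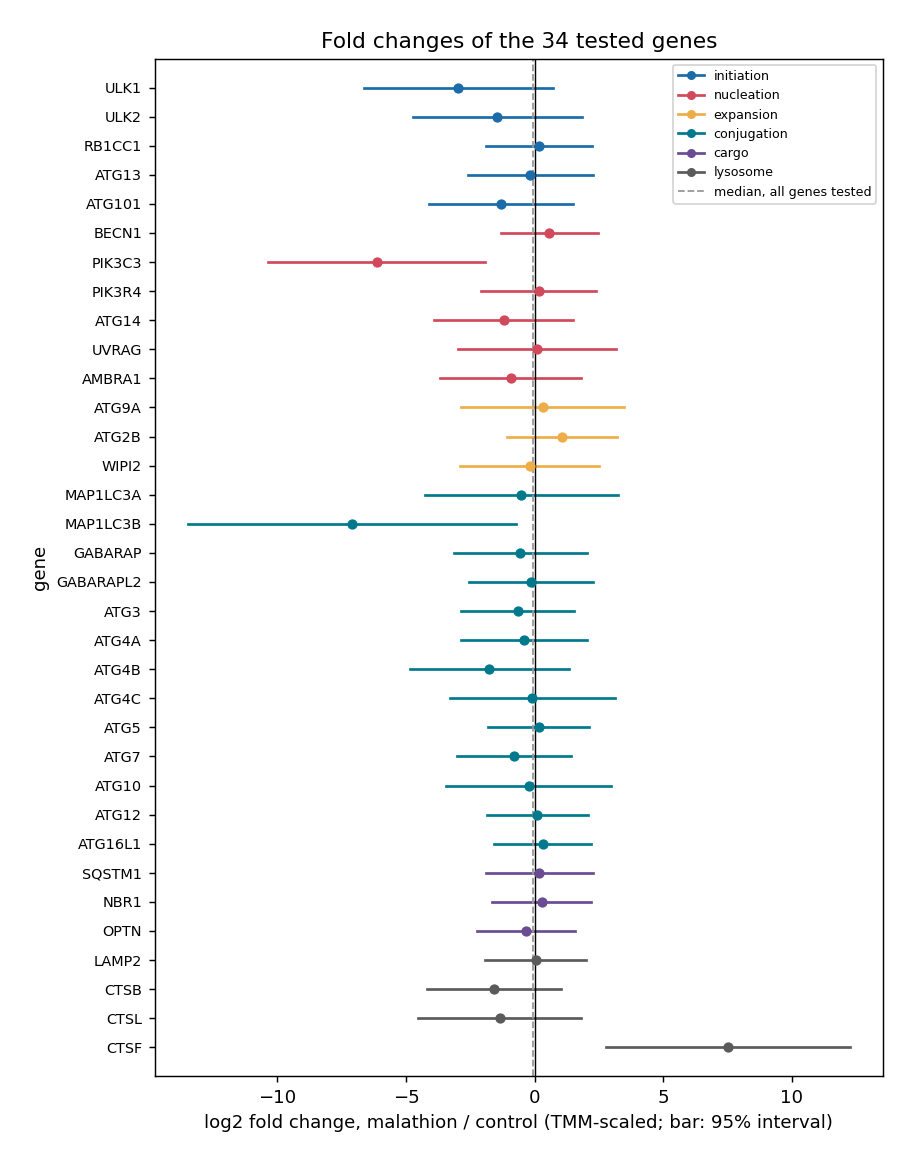
Log2 fold change of malathion over control for the 34 tested genes (points, coloured by step) with 95% intervals (bars), from the fit over all genes. Only the intervals of PIK3C3, MAP1LC3B and CTSF leave 0 out, and none of these genes passed after adjustment.

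The initiation complex joins the kinases ULK1 and ULK2 with the scaffold RB1CC1 (also called FIP200), ATG13 and ATG101. ULK1 (ENSSSCG00000009742) stood at 1.55, 6.16 and 0 CPM in control replicates 1, 2 and 3 and, after malathion, at 0.0387, 0.648 and 0 CPM in replicates 1, 2 and 3. Its malathion values lay below those of control replicates 1 and 2, the groups overlapped through the zeros of the replicate 3 libraries, and the counts behind it were few, 167 at most. The log2 fold change of ULK1 was −2.97 ± 1.72 (SE), from −5.63 without malathion replicate 2 to −1.84 without control replicate 2, and did not pass. RB1CC1 (ENSSSCG00000028902), with the most counts of this step, stood at 37.3, 47.3 and 0.475 CPM in the control and 23.7, 34.4 and 1.80 CPM in the malathion libraries. Its groups overlapped, with a log2 fold change of 0.17 ± 0.97, and −0.51 on library totals alone. ATG101 (ENSSSCG00000033687), which stabilises ATG13, was high in a single library: it stood at 9.03, 72.5 and 0.170 CPM in the control and 11.7, 12.6 and 0.0473 CPM in the malathion libraries (−1.29 ± 1.31, and 0.44 without control replicate 2). ULK2 had the same high library, with 22.6 CPM in control replicate 2 and at most 3.68 CPM elsewhere, whereas ATG13 lay between 17.6 and 21.6 CPM in the 4 libraries other than replicates 3. Of the 5 fold changes of this step 4 were below 0, where 46.6% of all tested genes were above 0. Without control replicate 2 those of ATG101 and ULK2 turned above 0.

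The nucleation complex makes the lipid that recruits later factors. PIK3C3 (VPS34) is its catalytic subunit, PIK3R4 (VPS15) its membrane anchor, BECN1 its central regulator, and ATG14 and UVRAG are alternative partners that direct it to new or to later membranes. BECN1 (ENSSSCG00000017386) stood at 75.8, 81.8 and 2.71 CPM in control replicates 1, 2 and 3 while the malathion libraries held 70.0, 85.6 and 6.52 CPM in the same order. The values of replicates 1 and 2 were within a narrow span in both groups, both replicate 3 libraries were low, and the group means were 53.4 ± 44.0 and 54.1 ± 41.9 CPM (SD, n = 3 each). The log2 fold change of BECN1 was 0.57 ± 0.88, and 0.02 on library totals alone.

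PIK3C3 (ENSSSCG00000003749) behaved otherwise. It stood at 5.51, 7.86 and 86.2 CPM in the control and at 6.78, 5.73 and 0.496 CPM in the malathion libraries. Control replicate 3 was the high library and malathion replicate 3 the low one, and the remaining 4 overlapped. Its log2 fold change of −6.15 ± 1.98 (unadjusted p = 0.00755 in edgeR's quasi-likelihood test, adjusted p = 0.9998) turned to 0.37 without control replicate 3, and was −2.94 on library totals and −1.38 when replicate number entered the model as a block. Without the filter on low counts it passed in edgeR, at an adjusted p of 0.0471. This was the lowest of a range up to 0.99998 over the 13 alternatives that gave an adjusted p, and DESeq2 gave none. ATG14 (ENSSSCG00000005058) stood at 10.1, 62.5 and 0.170 CPM in the control and 9.49, 13.4 and 0.0945 CPM in the malathion libraries. As for ATG101, control replicate 2 was the single high library, and the log2 fold change of −1.21 ± 1.26 turned to 0.26 without it. AMBRA1, which links BECN1 to the cytoskeleton, also peaked there, at 32.2 CPM against at most 11.3 CPM elsewhere, and UVRAG at 14.7 against at most 7.45 CPM. PIK3R4 lay between 7.86 and 20.7 CPM outside the replicate 3 libraries, where it was at 1.15 and 1.49 CPM.

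Membrane expansion needs the lipid scramblase ATG9A, the lipid transfer proteins ATG2A and ATG2B and the lipid-binding adaptors WIPI1 and WIPI2. ATG2B (ENSSSCG00000002502) stood at 42.0, 23.4 and 0.441 CPM in the control and at 27.3, 37.9 and 4.40 CPM in the malathion libraries. Its groups overlapped (log2 fold change 1.08 ± 1.00). The fold change was 0.08 on library totals alone and −0.42 without control replicate 2 and both replicate 3 libraries. WIPI2 (ENSSSCG00000007580), which brings ATG16L1 to the membrane, stood at 39.9, 55.7 and 0.0339 CPM in the control and 19.8, 49.4 and 0.189 CPM in the malathion libraries (−0.19 ± 1.27). The counts of WIPI2 in the replicate 3 libraries were 1 and 8, so the value there rests on single reads. ATG9A (ENSSSCG00000016211) stood at 1.58, 1.22 and 0.0679 CPM in the control and 2.71, 1.48 and 0 CPM in the malathion libraries, again with overlap (0.31 ± 1.49). Their paralogs were nearly absent and not tested. ATG2A reached 1.51 CPM in control replicate 2 and at most 0.180 CPM elsewhere, and WIPI1 had 12 counts in control replicate 1 and 0 in each of the other libraries, which at 3 counts allows 0.0709 to 0.116 CPM there.

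Conjugation was the step with the most genes, 15, of which 13 were tested, 3 with a fold change above 0 and 10 below. Of all tested genes 46.6% were above 0. Without control replicate 2, ATG10, GABARAPL2 and MAP1LC3A turned above 0 and ATG5 below. The small proteins LC3 and GABARAP are trimmed by ATG4 proteases, activated by ATG7, passed to ATG3 and joined to membrane lipid by the ATG12-ATG5-ATG16L1 complex. GABARAPL2 (ENSSSCG00000002707), a GABARAP family member, stood at 343, 740 and 5.06 CPM in control replicates 1, 2 and 3 and, after malathion, at 370, 413 and 4.87 CPM in replicates 1, 2 and 3. Control replicate 2 was highest, both replicate 3 libraries were low at nearly the same value, and the groups overlapped (log2 fold change −0.13 ± 1.13). GABARAP (ENSSSCG00000017936) had few reads, with 7.05, 12.4 and 0.543 CPM in the control and 3.80, 6.16 and 0.425 CPM in the malathion libraries. Each malathion value of GABARAP was below the control value of the same number (−0.55 ± 1.203), but control replicate 3 lay below malathion replicates 1 and 2. In the replicate 3 libraries GABARAP had 16 counts in control and 18 in malathion, so the order there came from the library totals. GABARAPL1 (ENSSSCG00000000645) was not tested. It stood at 0.252, 9.04 and 0.0339 CPM in the control and 0, 0.576 and 0 CPM in the malathion libraries, so it was seen mainly in control replicate 2.

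MAP1LC3B (ENSSSCG00000002655), the LC3 form most used as a marker of autophagosomes, was the only one of the 34 genes whose groups did not overlap in CPM, where 0.749% of all tested genes did not overlap (0.506% with malathion lower and 0.243% with malathion higher). It stood at 43.7, 119 and 1357 CPM in the control and, after malathion, at 42.8, 41.5 and 4.96 CPM in replicates 1, 2 and 3. The gap between the groups was narrow, since control replicate 1 exceeded malathion replicate 1 by less than 1 CPM, and the values were spread widely by control replicate 3, which alone held 84.4% of the summed CPM. The log2 fold change of −7.11 ± 2.98 (unadjusted p = 0.0314 in edgeR's quasi-likelihood test, adjusted p = 0.9998) was −0.13 without control replicate 3, −4.09 on library totals and −2.11 when replicate number entered the model as a block. In TMM-normalised CPM, 0 of the 34 genes had groups without overlap, against 2.83% of all tested genes. MAP1LC3A (ENSSSCG00000007281) stood at 2.20, 5.57 and 0 CPM in the control and 0.0387, 4.57 and 0 CPM in the malathion libraries. Its value of −0.52 ± 1.76 rested on at most 151 counts and ranged from −5.70 without malathion replicate 2 to 0.22 without control replicate 2.

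**Figure D3:**
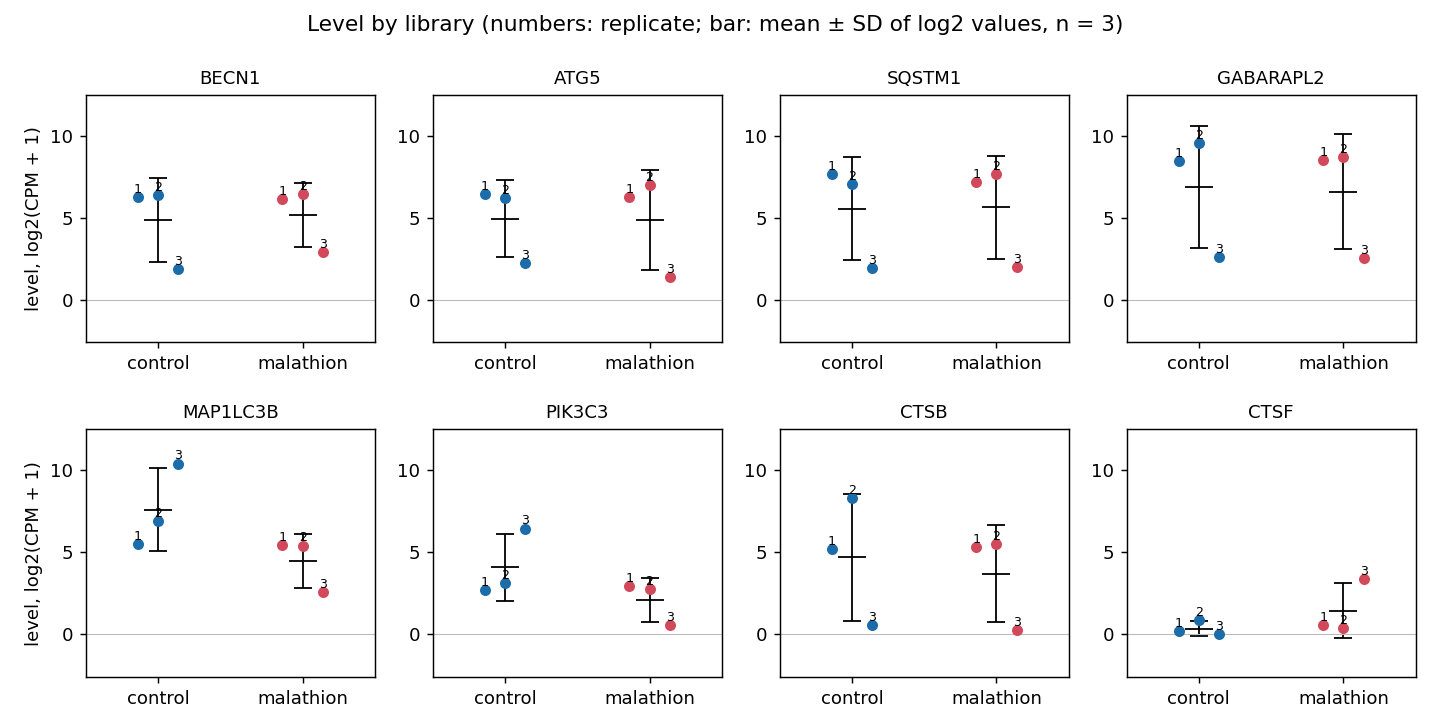
Level of 8 genes by library on the log2(CPM + 1) scale, control in blue and malathion in red, with replicate numbers beside the points and bars for the mean ± SD of the log2 values (n = 3 each). BECN1, ATG5, SQSTM1 and GABARAPL2 fall together in both replicate 3 libraries, whereas MAP1LC3B and PIK3C3 are highest in control 3, CTSB in control 2 and CTSF in malathion 3.

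Among the enzymes of conjugation, ATG4A (ENSSSCG00000012569), the protease with the most counts among the ATG4 genes, stood at 399, 553 and 47.2 CPM in the control and 324, 492 and 23.0 CPM in the malathion libraries (log2 fold change −0.41 ± 1.14). It was the only gene of the set above 10 CPM in both replicate 3 libraries, and its groups overlapped. ATG4B (ENSSSCG00000032919) stood at 6.01, 36.3 and 0.0679 CPM in the control and 3.83, 5.29 and 0.0236 CPM in the malathion libraries. Its fold change of −1.75 ± 1.44 lay at −0.24 without control replicate 2, the single high library. ATG4C lay between 2.25 and 2.95 CPM outside the replicate 3 libraries, and ATG4D, not tested, had 6 counts in malathion replicate 1 and 0 elsewhere.

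ATG5 (ENSSSCG00000004370), the acceptor of ATG12, stood at 85.0, 71.9 and 3.70 CPM in the control and at 75.6, 124 and 1.61 CPM in the malathion libraries. Malathion replicate 2 was the highest and the groups overlapped (log2 fold change 0.16 ± 0.92). Its partners were as even: ATG12 lay between 155 and 228 CPM and ATG16L1 between 85.9 and 140 CPM outside the replicate 3 libraries, with fold changes of 0.11 ± 0.92 and 0.32 ± 0.89. On library totals alone the fold changes of ATG12 and ATG16L1 were −0.30 and −0.19. ATG7 (ENSSSCG00000011575), the activating enzyme, stood at 21.95, 56.7 and 0.746 CPM in the control and 13.3, 24.5 and 0.331 CPM in the malathion libraries. As with GABARAP, each malathion value of ATG7 was below the same-numbered control value while the groups overlapped (−0.80 ± 1.04). The same held for the conjugating enzyme ATG3, at 36.1 CPM in control replicate 2 and at most 15.5 CPM elsewhere (−0.66 ± 1.03). ATG10, which joins ATG12 to ATG5, had at most 64 counts in a library.

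Of the cargo receptors, SQSTM1 and NBR1 each varied by less than 2-fold over the libraries other than replicates 3, and OPTN had a single high library. SQSTM1 (p62, ENSSSCG00000014016) stood at 201, 133 and 2.88 CPM in the control and 144, 204 and 3.05 CPM in malathion replicates 1, 2 and 3. The order of replicates 1 and 2 was opposite in the groups, and the means were 112 ± 101 and 117 ± 103 CPM (SD, n = 3 each; log2 fold change 0.19 ± 0.98). NBR1 (ENSSSCG00000030211), a related receptor, stood at 41.2, 36.4 and 1.73 CPM in the control and 33.5, 32.7 and 2.98 CPM in the malathion libraries. It varied least of these 3 genes in replicates 1 and 2 and had a fold change of 0.29 ± 0.90 (−0.20 on library totals alone). OPTN (ENSSSCG00000023247), a receptor for damaged mitochondria and bacteria, stood at 34.98, 86.6 and 2.21 CPM in the control and 39.4, 34.9 and 1.75 CPM in the malathion libraries (−0.34 ± 0.89). The value of OPTN in control replicate 2 was 2.48 times the median of control replicate 1 and malathion replicates 1 and 2.

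Lysosome genes were unevenly represented, and 4 of the 7 were tested. The transcription factor TFEB (ENSSSCG00000001621), which activates lysosome and autophagy genes, had 11 counts in control replicate 2 (0.406 CPM) and 0 in each of the other libraries. LAMP1 (ENSSSCG00000009555), a coat protein of the lysosomal membrane, stood at 0.252, 2.36 and 0 CPM in the control and 1.201, 0.108 and 0 CPM in the malathion libraries. LAMP2 (ENSSSCG00000012604), its relative, stood at 29.1, 42.02 and 3.16 CPM in the control and 23.4, 33.99 and 3.43 CPM in the malathion libraries. LAMP2 was thus detected in every library, with the smallest fold change of the 34 in size (0.05 ± 0.92), its groups overlapped, and its sign turned in 9 of 14 alternatives.

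Among the cathepsins, CTSB (ENSSSCG00000023666), a cysteine protease, stood at 36.2, 310 and 0.475 CPM in control replicates 1, 2 and 3 while malathion replicates 1, 2 and 3 held 38.8, 44.6 and 0.213 CPM. Control replicate 2 held 72.0% of its summed CPM, and the other replicate 1 and 2 libraries were close to each other. The log2 fold change of CTSB was −1.57 ± 1.22, and 0.34 without control replicate 2. CTSL (ENSSSCG00000010948), another cysteine protease, stood at 0.828, 2.55 and 0 CPM in the control and 0.426, 0.540 and 0 CPM in the malathion libraries (−1.36 ± 1.48), from at most 69 counts. The aspartic protease CTSD (ENSSSCG00000040793) stood at 0, 0.111 and 0 CPM in the control and 0.349, 0.504 and 0 CPM in the malathion libraries, from at most 14 counts, and was not tested.

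CTSF (ENSSSCG00000038918), a further cysteine protease, stood at 0.144, 0.812 and 0 CPM in the control and 0.465, 0.324 and 9.50 CPM in the malathion libraries. It was low in 5 libraries, with 0 to 22 counts, and had 402 counts in malathion replicate 3. The groups overlapped through control replicate 2. Its log2 fold change of 7.51 ± 2.22 (unadjusted p = 0.0043 in edgeR's quasi-likelihood test, adjusted p = 0.9998) was 3.41 on library totals, 2.39 with the replicate block and 0.47 without malathion replicate 3. The gene passed in edgeR when malathion replicate 1 (adjusted p = 0.0149) or malathion replicate 2 (0.0162) was left out and without the filter on low counts (0.00159). The adjusted p ranged up to 0.99998 over the 13 alternatives that gave one, and DESeq2 gave none. Malathion replicate 3 was kept in each setting in which CTSF passed, and it was also the library with the smallest share of counts from the set.

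Much of the variation of these genes followed single libraries. Control replicate 1 and malathion replicates 1 and 2 lay within 2-fold of each other for 28 of the 34 tested genes (82.4%, against 70.1% of all tested genes). The 6 exceptions were ULK1, ULK2, PIK3R4, WIPI2, MAP1LC3A and CTSF. In control replicate 2 the level was over 2 times the median of those 3 libraries for 16 of the 34 (47.1%, against 38.3% of all tested genes), most in ULK2 (10.1 times), ULK1 (9.51 times), CTSB (7.99 times), ATG4B (6.86 times), ATG101 (6.18 times) and ATG14 (6.16 times). None of the 34 was below 0.5 times that median there, as 1177 of the 10678 tested genes were. Control replicate 2 held the highest CPM for 23 of the 34 genes (67.6%, against 54.7% of all tested genes). In the same library oocyte markers summed to 31086 CPM against 61360 to 84499 CPM in the other replicate 1 and 2 libraries, and cumulus and granulosa markers to 425 against 654 to 728 CPM. The oocyte markers differed in direction there. BTG4, a large part of the sum, was lower (7710 against 24612 to 44538 CPM). GDF9 (2650 against 377 to 404 CPM) and ZP3 (998 against 348 to 417 CPM) were higher. The part of that makeup in the result was not tested.

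In control replicate 3 and in malathion replicate 3, 29 of the 34 genes lay under 10% of the same median (85.3%, against 75.0% and 74.5% of all tested genes). The median of the ratio was 0.0225 and 0.0170 over the 34 genes, and 0.0160 and 0.0169 over all tested genes. PIK3C3 (15.05 times) and MAP1LC3B (31.7 times) exceeded the median in control replicate 3, and CTSF alone (29.3 times) in malathion replicate 3. Low levels there were thus common to most genes measured, and no gene of the 34 exceeded the median in both replicate 3 libraries.

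Same-numbered libraries showed the same dependence on the replicate. In replicates 1, the log2 of malathion CPM over control CPM, with 1 added to each, lay within 1 of 0 for 32 of the 34 genes, against 94.1% of all tested genes, with 8 ratios above 0, 26 below and a median of −0.26 (−0.08 over all tested genes). ULK1 (−1.29) and MAP1LC3A (−1.62) were outside. In replicates 2 it was 22 of 34 genes, against 60.8% of all tested genes. There 6 ratios were above 0 and 28 below, with a median of −0.45 (−0.37 over all). In replicates 3, 28 of 34 lay within 1 of 0, against 82.1%. Of those ratios 12 were above 0 and 18 below, with a median of −0.03 (0 over all). The ratio had an SD of 0.49, 0.98 and 1.86 over the 34 genes in replicates 1, 2 and 3, and of 0.50, 1.23 and 1.62 over all tested genes. The malathion value was below the same-numbered control value in all 3 replicates for 9 of the 34 genes, against 14.6% of all tested genes, and above it for 0, against 6.8%. The 9 were ATG13, ATG14, AMBRA1, MAP1LC3B, GABARAP, ATG3, ATG4A, ATG4B and ATG7. Of these, only MAP1LC3B and ATG4A had more than 36 counts in a replicate 3 library, so the direction there rested on few reads for the rest. ATG4B had 2 counts in control and 1 in malathion replicate 3, and GABARAP had 16 and 18. Without both replicate 3 libraries, 8 of the 34 genes had groups that did not overlap in CPM, against 25.6% of all tested genes. All 8 were lower in both malathion libraries (ULK1, RB1CC1, MAP1LC3B, GABARAP, ATG4B, ATG12, NBR1 and CTSL), where 15.5% of all tested genes were, and none passed edgeR's test in that setting.

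**Figure D4:**
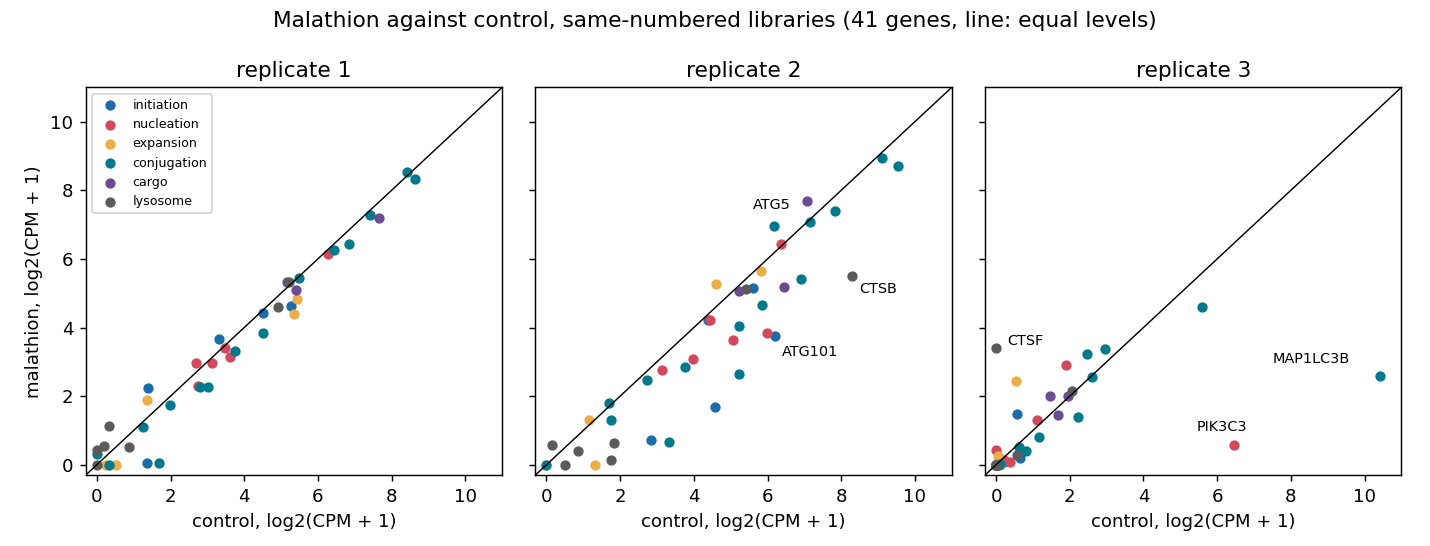
Level in malathion (vertical) against control (horizontal) libraries of the same number, log2(CPM + 1), for the 41 genes coloured by step, with the line of equal levels. Points follow the line in replicate 1, scatter mostly below it in replicate 2, and crowd near the origin in replicate 3 with MAP1LC3B and PIK3C3 far to the right and CTSF at the left edge.

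A further 79 symbols of the pathway outside the 41 genes were counted, of which 70 were matched and 64 tested. None passed the test, and 3 of the 64 had an unadjusted p under 0.05, against 3.59% of all tested genes. By direction 34 fold changes were above 0 and 30 below (53.1% above, against 46.6% of all tested genes). The median log2 fold change was 0.09, and −0.08 over all tested genes. Among 11 tested genes for fusion of autophagosomes with lysosomes, 3 were above 0. The SNARE gene SNAP29, the one with the smallest p, had a log2 fold change of −6.20 ± 2.22. It stood at 0.576, 5.68 and 9.70 CPM in control replicates 1, 2 and 3 against 0, 0.144 and 0.165 CPM in the malathion libraries. Of the 64 genes, 1 (SNAP29) had groups that did not overlap in CPM, against 0.749% of all tested genes (0.506% with malathion lower). In TMM-normalised CPM its groups overlapped. Its malathion counts were 0, 4 and 7, and control replicate 3 held 59.6% of its summed CPM. Of 9 mitophagy genes 5 were above 0, and the receptor gene CALCOCO2 (−7.25 ± 2.90) had 1107 CPM in control replicate 3 against a highest value of 90.0 CPM in the others, the same library in which MAP1LC3B was high. Of 11 other regulators 6 were above 0, with −3.96 ± 1.72 for WDR45B, a relative of the WIPI genes, again highest in control replicate 3 (177 CPM). The 12 tested genes of the proton pump that acidifies lysosomes were split 6 to 6 (median −0.01), with −1.13 ± 1.67 for the subunit gene ATP6V1F. Of 21 genes of lysosomal enzymes and membrane proteins 14 were above 0 (median 0.21), with 2.53 ± 1.44 for the cathepsin gene CTSH, which lay at 5.19 CPM at most.

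The direction of most of these values depended on the setting. The sign of the log2 fold change was the same under all 14 alternatives for 8 of the 34 genes (23.5%, against 22.3% of all tested genes). Of these 8, ULK1, GABARAP, MAP1LC3B, ATG3, ATG4B, ATG7 and CTSL were below 0 and CTSF above. Over all tested genes with the sign kept, 1288 were below 0 and 1094 above. The value nearest 0 over the alternatives was −0.09 for MAP1LC3B and for ATG3 and 0.18 for CTSF, and from −1.84 to −0.24 for the others. The median of the set lay below that of all tested genes in each of the 14 alternatives and with the reported setting, from −0.50 to 0.09 over the alternatives against −0.33 to 0.22.

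**Figure D5:**
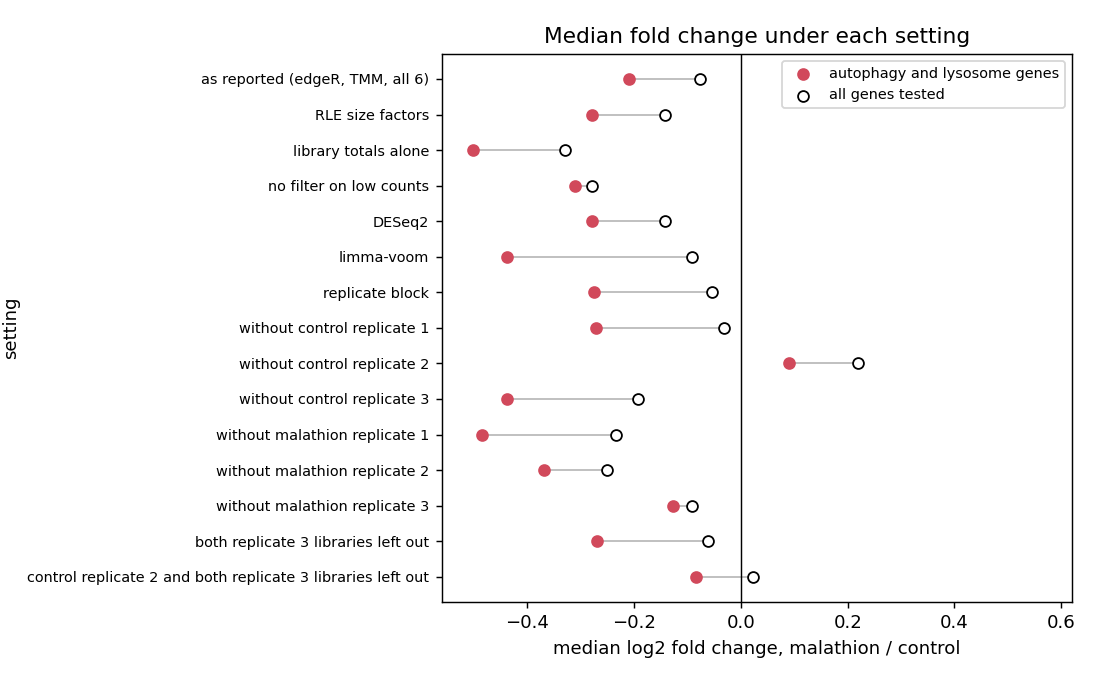
Median log2 fold change of malathion over control (horizontal) under each setting (rows) for the autophagy and lysosome genes (filled) and for all genes tested (open). The filled points lie left of the open ones in each row, and both lie right of 0 without control replicate 2.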

How the data were processed

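Read counts per Ensembl gene, 1 file per library, were used as deposited: whole counts with no normalization by the authors visible in the files. STAR 2.5.3a, HTSeq 0.9.1 and DESeq2 1.20.0 are named, per the submitters' processing notes. The build, the annotation and strand handling are not given in the sources used here, so no coordinates are printed, and overlapping or antisense genes and close paralogs are uncertain. The 5 closing rows of reads given to no gene (36.7% to 42.6% of a file, with 2.45% to 8.37% aligned to more than 1 place) were left out. Per the labels' protocols, libraries were made with Smart-seq2, which uses PCR and no molecular identifiers.

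Symbols came from a table of Ensembl names (14857 of 25880 identifiers matched). Malathion and control were compared over all genes with edgeR 4.0.16 in R 4.3.3 (quasi-likelihood F test, TMM, filterByExpr with a minimum count of 10 and total of 15, two-sided, Benjamini-Hochberg over 10678 genes, threshold 0.05). Alternatives used limma 3.58.1 and DESeq2 1.42.0, other scalings, no filter, a replicate block and left-out libraries. Same-numbered libraries deviated together from their group means across genes (r = 0.466, 0.467 and 0.573 for replicates 1, 2 and 3), which met the level of 0.1 set for taking numbers as pairs. Unmatched libraries of replicates 1 and 2 deviated together nearly as much (r = 0.457 and 0.374) and those of replicates 3 with others in opposite ways (−0.553 to −0.459), so the check mainly parts replicates 3 from the rest. Pair ratios added 1 CPM.

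The genes and lists were chosen with earlier results of these data known. Levels in every library are given for 17 genes picked by name, the 2 tested genes of each step with the smallest p, and the gene of each step with the most counts. Other genes are given by range, except ATG4A, whose levels were added after they were seen, and from each further list the gene with the smallest p is named.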

Additional observations from a re-analysis of the deposited data

How the results depend on the processing

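Over 14 alternatives, the count of genes called stayed at 0 except without the filter on low counts, where 60 genes and 2 of the autophagy and lysosome genes (CTSF 7.50, PIK3C3 −6.09) passed, and when 1 library was left out, where 0 to 3 genes and 0 to 1 of the set passed (CTSF, without malathion replicate 1 or 2). DESeq2, in which 1119 genes received no p, and limma-voom called 0 genes, with 227 and 110 at an unadjusted p under 0.05. CTSF, MAP1LC3B and PIK3C3 were among the genes without a p, so DESeq2 could not call them. With the replicate number as a block 0 genes were called, 13 of 34 were above 0 and the median log2 fold change was −0.28, so pairing changed no call. On library totals alone, 6 were above 0. Leaving out 1 library gave 11 to 19 above 0 and medians of −0.48 to 0.090, the last without control replicate 2, where the median of all tested genes was 0.22. Of the 34 genes, those with groups that do not overlap numbered 1 in CPM, 0 in TMM-normalised CPM and 8 in CPM without both replicate 3 libraries. The shares of all tested genes were 0.749%, 2.83% and 25.6% in the same order. The sign of 20 of 34 genes turned when 1 library was left out. Left-out fits tested 34 to 37 of the 41 genes. The fit without control replicate 2 and both replicate 3 libraries has a lone control library, which is assumed to vary like the malathion ones. Depth limits genes near the floor of 3 counts (0.0709 to 0.116 CPM), among them TFEB, WIPI1, ATG4D and CTSD.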
